A study of Homo sapiens with 6 samples.

Results

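Transcript levels of 36 genes were followed in MHCC97-H cells given chloroquine or melatonin. The 36 encode 17 components of the vacuolar proton pump (V-ATPase) of lysosomes and the machinery that recruits mTORC1 to the lysosomal surface. That machinery is represented by 5 Ragulator subunits, 4 Rag GTPases, the folliculin complex with the arginine sensor SLC38A9 (4 genes), 3 mTORC1 subunits, and the tuberous sclerosis proteins with RHEB (3 genes). They were taken as a named list and found by symbol among the 62710 genes of the count table. All 36 were among the 16877 genes that passed the filter on low counts, and the lowest count of any of them in any library was 106.

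The cells are labelled as wild-type MHCC97-H, a line derived from human hepatocellular carcinoma. Polyadenylated RNA was sequenced in 3 groups of 2 libraries at 16 h. One group is labelled as receiving no treatment, another was given chloroquine at 40 µM and the other melatonin at 0.2 mM. The submitters describe chloroquine as blocking autophagy and melatonin as blocking endoplasmic reticulum stress. No library is labelled as solvent-only, so effects of an agent and of its solvent cannot be told apart, nor is it stated that libraries of 1 group came from separate cultures. All p-values therefore measure only the spread between these libraries, which may be technical.

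The V-ATPase couples ATP hydrolysis by its cytosolic V1 sector to proton transport through its membrane V0 sector and so acidifies the lysosome, the compartment in which chloroquine, a weak base, accumulates. When amino acids are plentiful, the Rag GTPases, anchored to the lysosome by Ragulator and switched by the folliculin complex, bring mTORC1 to that membrane, where RHEB activates it. The TSC complex turns RHEB off. Many V-ATPase and lysosomal genes carry a short DNA element read by the transcription factors TFEB and TFE3, which mTORC1 holds in the cytoplasm. Folliculin and its FNIP partners act as a GTPase-activating complex on RRAGC and RRAGD, a step known to govern how these factors are handled.

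Library totals ran from 15993730 to 23311452 counts. Levels are given in CPM, which are counts over the TMM-scaled library total. The 3 counts that a count of 0 would allow came to 0.123 to 0.184 CPM, a limit that covers counting error only. Of 10 hepatocyte markers, 8 had at most 3 counts in every library, among them ALB and APOB. HNF4A alone of the 10 passed the filter on low counts, at 2.15 and 1.94 CPM in untreated libraries. It was called lower with melatonin (log2 fold change -2.06) and not called with chloroquine (-0.65). All 5 epithelial and ductal markers were measured. The summed level of those 5 was 2919 to 3031 CPM in untreated cells, 2284 to 2329 CPM with chloroquine and 1458 to 1521 CPM with melatonin. With each agent 4 of the 5 were called lower. The exception, EPCAM, was called higher with chloroquine (log2 fold change 0.46) and not called with melatonin (0.08). Nuclear-retained RNAs, 5 listed and 4 measured, summed to 1428 to 1511 CPM in untreated cells, 1873 to 1978 CPM with chloroquine and 2812 to 3010 CPM with melatonin. Of those 4, 3 were called higher with chloroquine, whereas with melatonin NEAT1 alone was (log2 fold change 1.20). Log2 fold changes over all genes also declined as the GC content of the transcript increased. The slope per 10% GC was -0.132 with chloroquine and -0.202 with melatonin. The part that these differences between libraries play in the results below was not tested. Fits with offsets for GC content and transcript length together were also made, and calls that they ended are given beside the genes. In bulk RNA, fewer cells of a type and less RNA per cell cannot be told apart.

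With chloroquine, the transcripts that rose most were those of FLCN and FNIP1, both 1.57-fold, followed by RRAGC at 1.40-fold. Several V-ATPase subunits rose by smaller amounts, ATP6V1E1 by 1.23-fold and ATP6V0A2 by 1.20-fold. In all, 11 of the 36 rose and 4 fell (41.7%), where 20.2% of all tested genes were called (9.54% higher and 10.7% lower). The median log2 fold change of the 36 was 0.07. With melatonin, MLST8 fell to 0.577 and RPTOR to 0.649 of their untreated levels and ATP6V0A1 rose 1.34-fold. There, 6 of the 36 rose and 11 fell (47.2%), where 52% of all tested genes were called (25.5% higher and 26.5% lower), with a median of -0.08. A call is an adjusted p below 0.05 in edgeR's quasi-likelihood test, and every adjusted p given for a gene is from that test, with Benjamini-Hochberg adjustment across the whole set of 16877 genes. Both comparisons share the untreated libraries.

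**Figure D1:**
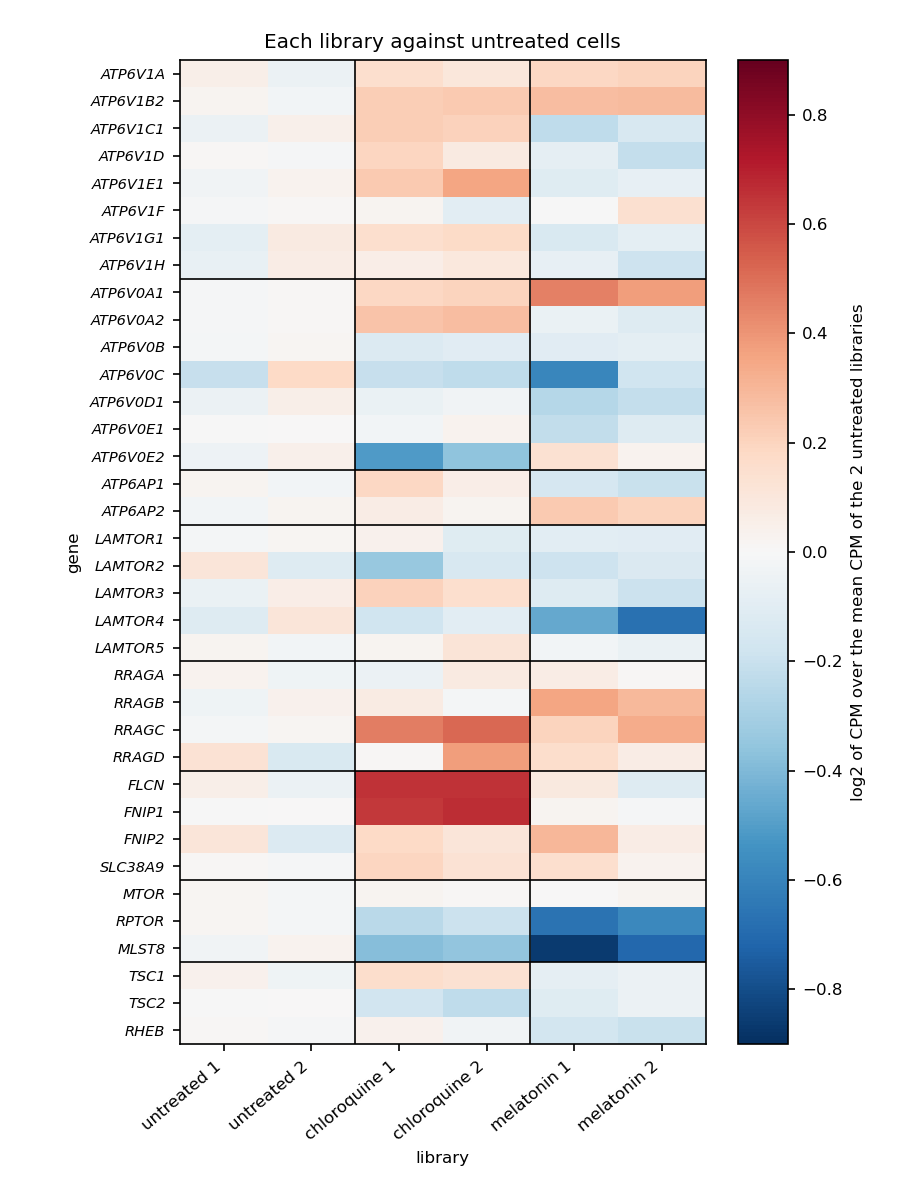
Colour shows the log2 ratio of each library's CPM to the mean of the 2 untreated libraries for the 36 genes (rows) in the 6 libraries (columns), with lines between gene groups and treatments. FLCN, FNIP1 and RRAGC are deepest red in the 2 chloroquine libraries, and RPTOR, MLST8 and LAMTOR4 are blue in both melatonin libraries.

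Per length of exon, the untreated levels of the 36 genes spanned 1.31 to 88.1 RPKM (CPM divided by the length in kb of the union of GENCODE exons), with a median of 12.2. The highest were the peripheral-stalk subunit ATP6V1G1 at 88.1 ± 7.36 (SD, n = 2) and ATP6V1F at 77.9 ± 1.00, with both libraries of the former above those of the latter, and then the small membrane subunit ATP6V0E1 at 67.0 ± 0.366. RHEB stood at 36.2 ± 0.414, LAMTOR5 at 31.8 ± 0.727 and RRAGA at 31.4 ± 1.08, the last of these close enough for their SDs to overlap. At the low end were FNIP2 at 1.31 ± 0.147, the alternative subunit ATP6V0E2 at 1.61 ± 0.0726, RRAGD at 1.92 ± 0.252 and FLCN at 2.17 ± 0.114, of which RRAGD overlapped within SDs with both ATP6V0E2 and FLCN. Among the Rag GTPases, which work as pairs of RRAGA or RRAGB with RRAGC or RRAGD, RRAGA exceeded RRAGB (6.26 ± 0.228) and RRAGC (3.71 ± 0.0667) exceeded RRAGD. Between the paralogous V0 a-subunits among the 36, which help direct the pump to different membranes, ATP6V0A1 (7.23 ± 0.0907) exceeded ATP6V0A2 (3.78 ± 0.0269). TCIRG1, an a-subunit outside the 36, stood above both at 8.13 ± 0.362. These values depend on which exons were counted, and the annotation release behind the counts is not given in the sources used here.

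**Figure D2:**
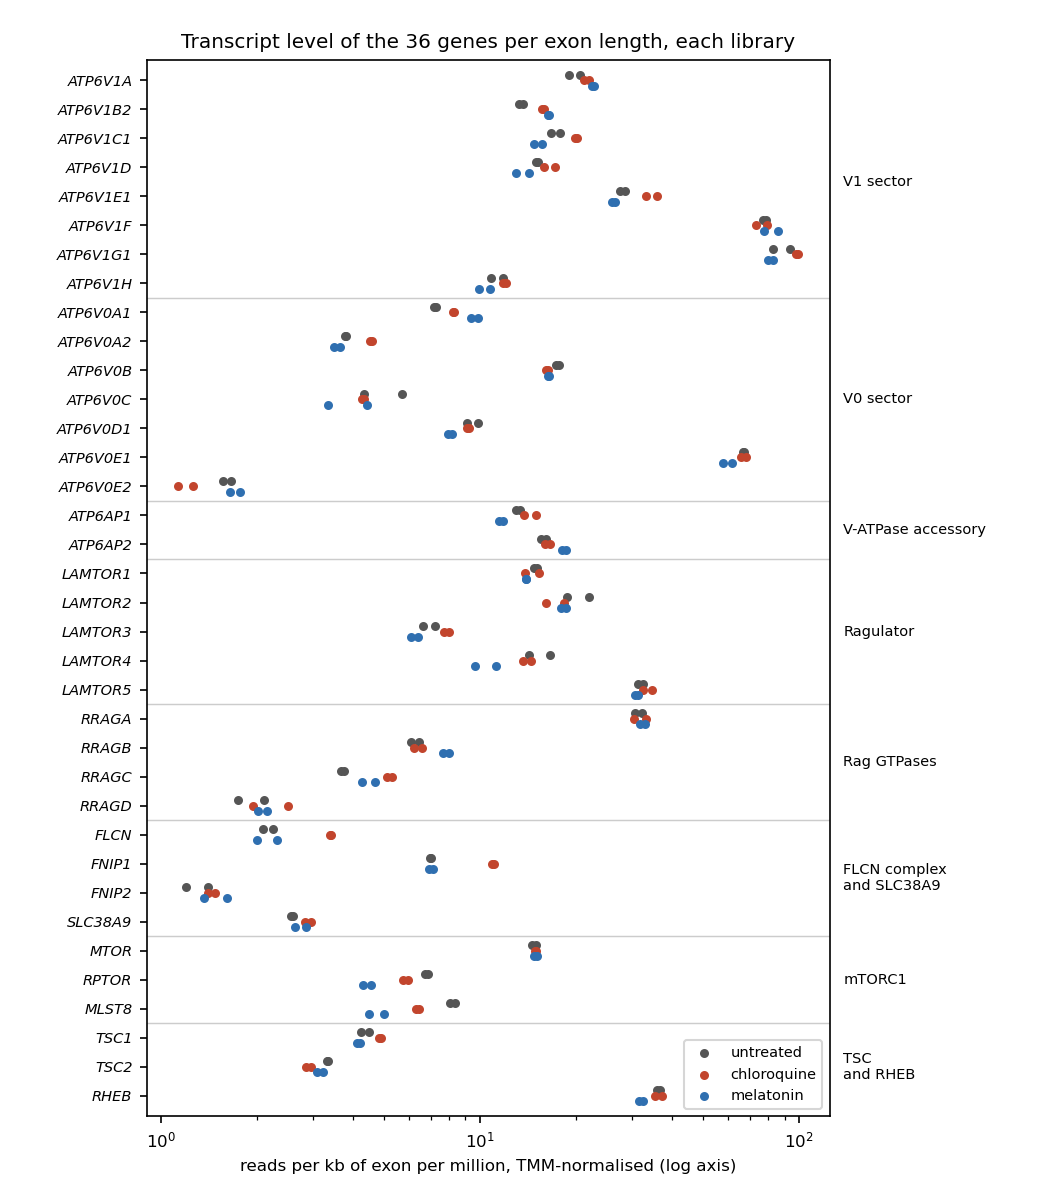
Each point is 1 library, placed by its RPKM on a log axis, for the 36 genes grouped by role. ATP6V1G1, ATP6V1F and ATP6V0E1 lie farthest right and FNIP2, ATP6V0E2 and RRAGD farthest left, and the points of the 3 treatments lie close together for most genes.

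Promoter windows from RefSeq (GRCh38.p14, 250 bases before to 50 after each annotated start) matched 28 of the 36 genes. ATP6V0E1, ATP6V1A, ATP6V1B2, ATP6V1C1, ATP6V1H, MLST8, RRAGA and RRAGD were not searched. The E-box core CACGTG, which reads the same on both strands, lay in the window of 10 of the 28 (35.7%). This compared with 12.3% of 11485 tested genes with a window and 8.77% of all 27305 RefSeq genes with one, in the count table or not. Those 10 were ATP6V0B, ATP6V0D1, ATP6V0E2, ATP6V1G1, FNIP1, LAMTOR1, LAMTOR4, RRAGB, RRAGC and TSC2. The same 10 held TCACGTG on either strand, which contains the core (35.7%, against 7.08% of tested genes). The longer CLEAR palindrome, the core with GT before it and AC after it, contains both and is the form described for lysosomal genes. It was in ATP6V1G1 and RRAGB (7.14%, against 0.871% of tested genes). The stretches below are shown because they surround matches of genes called higher with an agent. RRAGC rose with both agents, FNIP1 with chloroquine and RRAGB with melatonin. ATP6V1G1 was called higher with chloroquine and lower with melatonin, and both of its calls were lost in several alternative fits. Capitals mark CACGTG, and each stretch is written 5′ to 3′ on the strand of the gene.
RRAGC: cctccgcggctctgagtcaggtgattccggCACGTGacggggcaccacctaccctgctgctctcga
FNIP1: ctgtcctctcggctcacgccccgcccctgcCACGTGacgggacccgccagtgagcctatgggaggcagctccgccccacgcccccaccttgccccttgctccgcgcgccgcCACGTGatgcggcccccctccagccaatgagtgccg
RRAGB: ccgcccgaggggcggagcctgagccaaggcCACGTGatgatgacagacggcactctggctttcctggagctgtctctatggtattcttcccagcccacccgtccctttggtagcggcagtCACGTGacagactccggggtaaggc
ATP6V1G1: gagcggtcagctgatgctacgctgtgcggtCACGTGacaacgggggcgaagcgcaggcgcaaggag
The RRAGC stretch is chr1:38859849-38859914 on the minus strand, with its match at position -112 from the start. That of FNIP1 is chr5:131797076-131797222 on the minus strand, with matches at -175 and -94. That of RRAGB is chrX:55717604-55717748 on the plus strand, with matches at -115 and -25, and a further match of RRAGB lies past the start and is not shown. That of ATP6V1G1 is chr9:114587681-114587746 on the plus strand, with its match at -58. The FLCN window holds no CACGTG, which says only that these letters are not in that window. Stretches of matched genes that only fell, ATP6V0E2 and TSC2 with chloroquine and ATP6V0D1 and LAMTOR4 with melatonin, are not shown. Of the 10 genes with the core, 3 rose and 2 fell with chloroquine (median log2 fold change -0.04). Of the 18 without it, 5 rose and 1 fell (median 0.13). With melatonin 2 rose and 3 fell of the 10 (median -0.09), and 2 rose and 5 fell of the 18 (median -0.08). Among all tested genes, 9.54% rose and 10.7% fell with chloroquine, and 25.5% rose and 26.5% fell with melatonin. A match describes the sequence and is no evidence of binding.

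Of the folliculin complex and SLC38A9, 2 of 4 genes rose with chloroquine and none fell, where 9.54% and 10.7% of all tested genes did. FLCN (chr17:17212212-17237188, minus strand), the catalytic GTPase-activating subunit, was at 22.0 and 20.4 CPM in untreated libraries, 33.4 and 33.3 with chloroquine, and 22.6 and 19.6 with melatonin. Both chloroquine libraries lay above the other 4, and the melatonin values enclosed the untreated ones. Its log2 fold change was 0.65 ± 0.0848 (SE) with chloroquine (adjusted p = 1.94e-06) and 0.00 ± 0.0893 with melatonin (adjusted p = 0.979). FLCN exons share 11.9% of their bases with AC055811.2 on the same strand, which had 0 to 8 counts in the 6 libraries. FNIP1 (chr5:131641714-131797063, minus strand), a binding partner of FLCN, was at 55.4 and 55.7 CPM in untreated libraries, 86.5 and 88.1 with chloroquine, and 56.6 and 55.1 with melatonin. It showed the same separation, with a log2 fold change of 0.65 ± 0.0513 with chloroquine (adjusted p = 2.71e-10) and 0.01 ± 0.0538 with melatonin. The paralogue FNIP2 was at 13.1 to 17.5 CPM over all 6 libraries, and SLC38A9, which senses arginine within the lysosome, at 22.6 to 26.0 CPM. Neither of these was called with either agent, with log2 fold changes of 0.15 and 0.16 with chloroquine. Without untreated library 1 or without melatonin library 2, FNIP2 was called with melatonin, at 0.32 and 0.30. With melatonin none of the 4 was called by edgeR, none had an unadjusted p under 0.05, and DESeq2 and limma-voom called none. Among all tested genes, edgeR called 52% with melatonin. Offsets for GC content and length left the chloroquine values of FLCN (0.75) and FNIP1 (0.53) called and turned the melatonin value of FNIP1 to a called -0.21. Between agents, FLCN was higher with chloroquine by 0.65 ± 0.0827 (adjusted p = 2.25e-07) and FNIP1 by 0.64 ± 0.0502 (adjusted p = 2.77e-11).

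Among the Rag GTPases, 1 of 4 rose with chloroquine and 2 of 4 with melatonin, where 9.54% and 25.5% of all tested genes rose. None of the 4 fell. RRAGC (chr1:38838198-38859823, minus strand), the substrate of the folliculin complex, was at 18.9 and 19.4 CPM in untreated libraries, 26.4 and 27.5 with chloroquine, and 22.0 and 24.2 with melatonin. The 3 groups did not overlap, with chloroquine highest and melatonin between. Its log2 fold change was 0.49 ± 0.0857 with chloroquine (adjusted p = 1.23e-04) and 0.26 ± 0.0872 with melatonin (adjusted p = 0.0135), and chloroquine exceeded melatonin by 0.23 ± 0.0816 (adjusted p = 0.0228). The melatonin call was lost without untreated library 1 (0.24), without melatonin library 2 (0.20) and with the GC and length offsets (0.17), and the call between agents without chloroquine library 2 (0.21) or melatonin library 1 (0.15). RRAGB (chrX:55717739-55758774, plus strand), an alternative to RRAGA in the heterodimer, was at 16.6 and 17.5 CPM in untreated libraries, 18.0 and 16.9 with chloroquine, and 21.8 and 20.9 with melatonin. Here the melatonin libraries stood above the other 4, at a log2 fold change of 0.33 ± 0.0906 (adjusted p = 0.00344), against 0.03 ± 0.0934 with chloroquine. Melatonin exceeded chloroquine by 0.30 in RRAGB (-0.30 ± 0.0884 as chloroquine minus melatonin, adjusted p = 0.0071), a call lost without chloroquine library 2 (-0.24) or melatonin library 1 (-0.26). RRAGA, at 48.2 to 52.8 CPM, and RRAGD, at 8.86 to 12.7 CPM, had overlapping groups in every comparison and were not called. The exons of RRAGC share 22.9% of their bases with another gene on the same strand, AL139260.2, which had 0 counts in every library. Reads from the shared bases cannot be told apart, so these 0 counts do not settle how RRAGC was counted.

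Of the 5 Ragulator subunits, which form the scaffold that tethers the Rags, none was called with chloroquine by edgeR, DESeq2 or limma-voom. However, 2 had an unadjusted p under 0.05, and edgeR called 20.2% of all tested genes with chloroquine. With melatonin 1 fell, where 26.5% of all tested genes did. LAMTOR4 (chr7:100148907-100155944, plus strand), a subunit of the scaffold's core, was at 27.5 and 32.2 CPM in untreated libraries, 26.3 and 27.9 with chloroquine, and 21.7 and 18.7 with melatonin. Both melatonin libraries lay below all others, while chloroquine and untreated values overlapped. The log2 fold change of LAMTOR4 was -0.55 ± 0.0912 with melatonin (adjusted p = 9.96e-06), which became -0.28 with the offsets and stayed called, and -0.14 ± 0.0882 with chloroquine. Its exons overlap C7orf43 on the opposite strand over 18.4% of their bases, and C7orf43 had 186 to 316 counts in the 6 libraries. LAMTOR3, a further core subunit, was at 28.1 and 30.4 CPM in untreated libraries, 33.8 and 32.5 with chloroquine, and 26.9 and 25.6 with melatonin. Its chloroquine libraries were highest and its melatonin libraries lowest, and only the difference between agents was called, at 0.33 ± 0.077 (adjusted p = 7.77e-04), until the offsets brought its melatonin value from -0.15 to a called -0.33. LAMTOR2 was at 23.1 to 31.6 CPM, with a log2 fold change of -0.24 ± 0.0887 with chloroquine (adjusted p = 0.0574). That value became called without untreated library 2 (-0.35), chloroquine library 2 (-0.34), melatonin library 1 (-0.24) or melatonin library 2 (-0.24), and with melatonin it was called without untreated library 2 (-0.28). LAMTOR1, which carries the lipid anchor of the complex, stayed at 38.5 to 42.7 CPM and LAMTOR5 at 72.9 to 82.3 CPM. Neither was called with either agent, although LAMTOR5 was called between agents without untreated library 1 (0.12), untreated library 2 (0.12) or chloroquine library 1 (0.16).

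Of the 3 mTORC1 subunits, 2 fell with each agent and none rose. Of all tested genes, 10.7% fell with chloroquine and 26.5% with melatonin. MTOR, the catalytic subunit, stayed at 177 to 182 CPM in all 6 libraries, with log2 fold changes of 0.02 ± 0.0371 with chloroquine and 0.01 ± 0.0371 with melatonin and overlapping groups. RPTOR (chr17:80544819-80966371, plus strand), which binds the Rags and presents substrates, was at 70.7 and 69.2 CPM in untreated libraries, 59.2 and 61.1 with chloroquine, and 44.2 and 46.8 with melatonin. MLST8 (chr16:2204248-2209416, plus strand), which binds the kinase domain and also belongs to mTORC2, was at 34.7 and 36.1 CPM in untreated libraries, 27.2 and 27.7 with chloroquine, and 19.5 and 21.7 with melatonin. Both genes were highest in untreated cells and lowest with melatonin, and no groups overlapped. With melatonin RPTOR fell by 0.62 ± 0.0572 on the log2 scale (adjusted p = 4.20e-10) and MLST8 by 0.79 ± 0.0811 (adjusted p = 3.54e-09). With chloroquine RPTOR fell by 0.22 ± 0.0554 (adjusted p = 0.00526) and MLST8 by 0.37 ± 0.0782 (adjusted p = 0.00106). The melatonin calls held after the offsets, at -0.38 for RPTOR and -0.41 for MLST8, whereas the chloroquine calls did not, at -0.06 and -0.12. The chloroquine call of RPTOR was also lost without chloroquine library 1 (-0.19). The transcripts of MLST8 (64.5% GC) and RPTOR (59.8% GC) were among the richest in GC of the 36. Both stood higher with chloroquine than with melatonin, RPTOR by 0.41 ± 0.0572 and MLST8 by 0.43 ± 0.0823, and these calls held after the offsets. MLST8 was the only 1 of the 36 called with melatonin in a test against a 1.5-fold change.

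**Figure D3:**
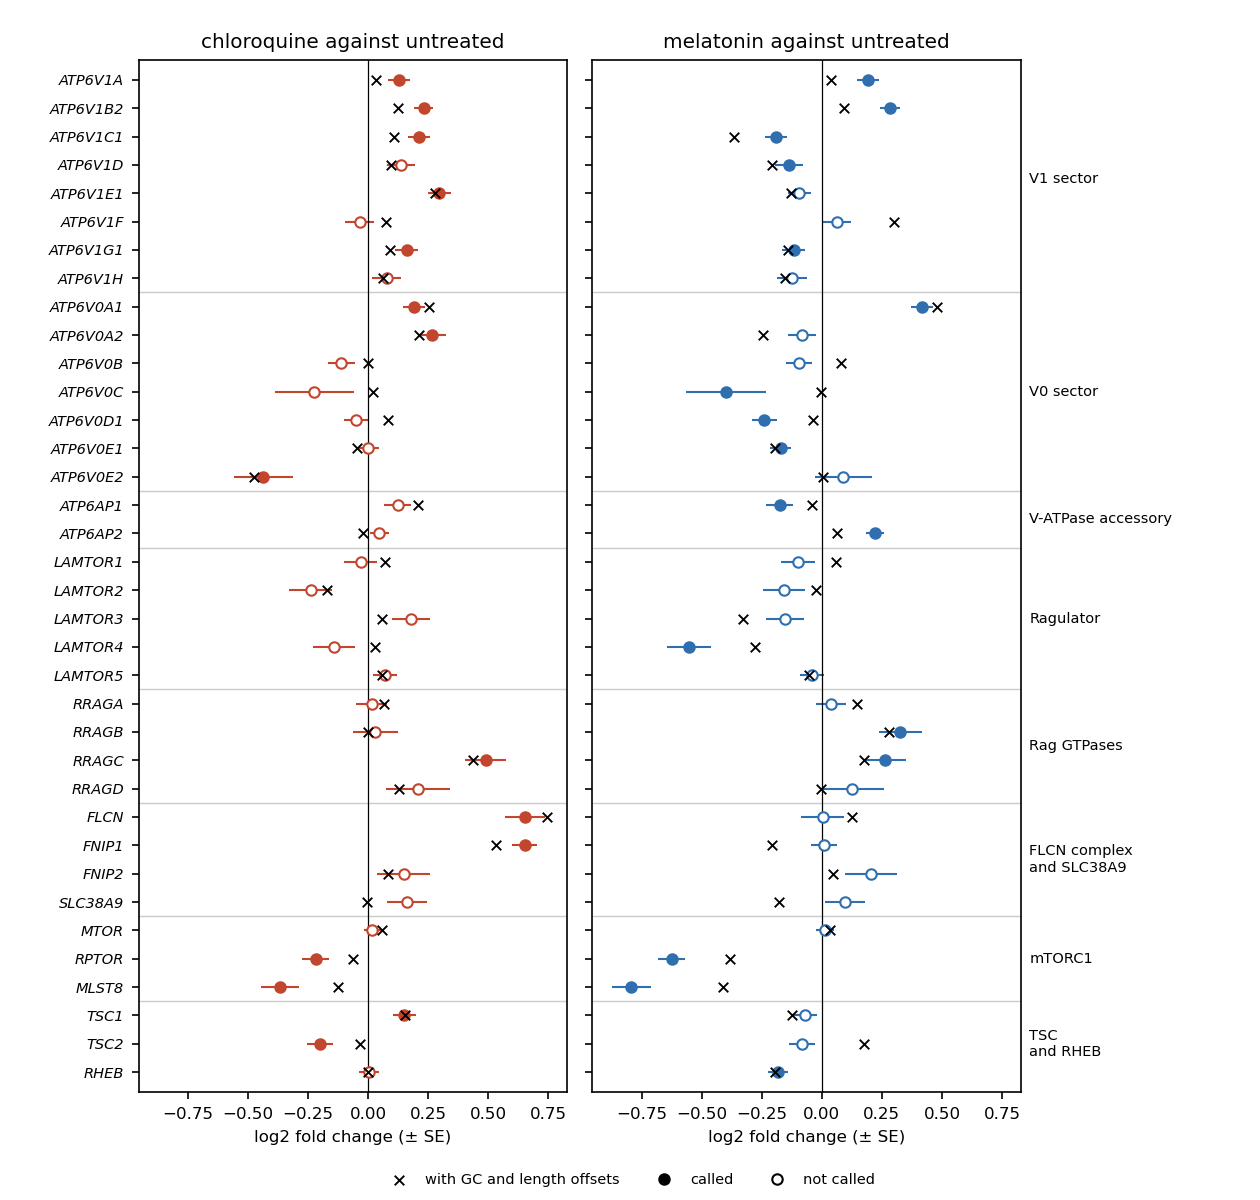
Circles show the log2 fold change of each gene against untreated cells (bars, SE, filled where called) with chloroquine at left and melatonin at right, and crosses the value after GC and length offsets. FLCN and FNIP1 stand out at 0.65 with chloroquine and near 0 with melatonin, and the crosses of RPTOR and MLST8 lie closer to 0 than their circles.

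The TSC genes and RHEB changed by small amounts. TSC1, which stabilises the complex, was at 79.1 and 74.8 CPM in untreated libraries, 86.0 and 84.8 with chloroquine, and 72.7 and 74.0 with melatonin. TSC2, its GTPase-activating subunit toward RHEB, was at 65.3 and 65.5 CPM in untreated libraries, 58.0 and 55.9 with chloroquine, and 60.6 and 63.1 with melatonin. With chloroquine, TSC1 lay above and TSC2 below the other 4 libraries. TSC1 rose by 0.15 ± 0.0479 (adjusted p = 0.0237), a call lost without untreated library 2 (0.11), chloroquine library 1 (0.14) or chloroquine library 2 (0.16), and in DESeq2. TSC2 fell by 0.20 ± 0.0548 (adjusted p = 0.00978), a call lost without untreated library 2 (-0.20) or chloroquine library 2 (-0.17), with the offsets (-0.03) and in DESeq2. RHEB, the GTPase that activates mTORC1, was at 129 and 127 CPM in untreated libraries, 132 and 125 with chloroquine, and 114 and 111 with melatonin. Its melatonin libraries lay below the other 4, and the log2 fold change was -0.18 ± 0.0418 with melatonin (adjusted p = 6.28e-04) and 0.01 ± 0.0414 with chloroquine. With melatonin TSC1 was at -0.07 and TSC2 at -0.08 and neither was called, but after the offsets both were, TSC1 at -0.12 and TSC2 at 0.18. Between agents TSC1 was higher with chloroquine by 0.22 ± 0.0472 (adjusted p = 3.28e-04) and RHEB by 0.19 ± 0.0412 (adjusted p = 4.80e-04). TSC2 was at -0.12 between agents and not called, but was called after the offsets (-0.21) and with library totals only (-0.21).

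The V1 sector, the ATP-hydrolysing part of the pump, had 5 of 8 genes called higher and none lower with chloroquine, where 9.54% of all tested genes rose. ATP6V1E1, a peripheral-stalk subunit, was at 87.9 and 91.7 CPM in untreated libraries, 106 and 115 with chloroquine, and 83.3 and 85.3 with melatonin. Its chloroquine libraries were the highest, and its log2 fold change with chloroquine of 0.30 ± 0.0471 (adjusted p = 3.55e-05) was the highest of the sector. With melatonin it was at -0.09 ± 0.0484 and not called, but called at -0.13 after the offsets. ATP6V1B2, the widely expressed B subunit, was at 107 and 103 CPM in untreated libraries, 123 and 124 with chloroquine, and 128 and 128 with melatonin. It lay lowest in untreated cells, with log2 fold changes of 0.23 ± 0.0414 with chloroquine (adjusted p = 1.58e-04) and 0.28 ± 0.0412 with melatonin (adjusted p = 1.37e-06), of which the offsets left the former called at 0.13 and ended the call of the latter (0.09). ATP6V1A, the catalytic subunit, was at 105 and 97.7 CPM in untreated libraries, 113 and 109 with chloroquine, and 115 and 116 with melatonin. It too was lowest in untreated cells, by 0.13 ± 0.0445 against chloroquine and 0.19 ± 0.0443 against melatonin. The chloroquine call of ATP6V1A was lost without untreated library 2 (0.08), chloroquine library 1 (0.10) or chloroquine library 2 (0.16), and the melatonin call without untreated library 2 (0.13). Both were lost with the offsets (0.03 and 0.04).

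A further 4 V1 genes were higher with chloroquine than with melatonin. ATP6V1C1, which bridges the stalk and the membrane sector, was at 97.7 and 104 CPM in untreated libraries, 118 and 116 with chloroquine, and 86.4 and 91.5 with melatonin. The 3 groups did not overlap, and it rose by 0.21 ± 0.0451 with chloroquine (adjusted p = 0.00103) and fell by 0.19 ± 0.0463 with melatonin (adjusted p = 0.00112), and with the offsets the chloroquine call was lost (0.11) and the melatonin value was -0.37. ATP6V1G1 was at 108 and 122 CPM in untreated libraries, 128 and 129.8 with chloroquine, and 104 and 108 with melatonin. Its chloroquine libraries were highest and its untreated and melatonin values overlapped, with log2 fold changes of 0.16 ± 0.0469 (adjusted p = 0.0142) and -0.12 ± 0.0477 (adjusted p = 0.0434). In ATP6V1G1 the chloroquine call was lost without untreated library 1 (0.08), chloroquine library 1 (0.17) or chloroquine library 2 (0.15) and with the offsets (0.09), and the melatonin call without untreated library 2 (-0.04), chloroquine library 1 (-0.12) or melatonin library 1 (-0.09). ATP6V1D, a subunit of the rotor shaft, was at 64.4 and 63.5 CPM in untreated libraries, 73.1 and 67.6 with chloroquine, and 60.5 and 55.2 with melatonin. It lay highest with chloroquine (0.14 ± 0.057, not called) and lowest with melatonin (-0.14 ± 0.0581, adjusted p = 0.0481), and the melatonin call was lost without untreated library 1 (-0.13), untreated library 2 (-0.16), chloroquine library 1 (-0.14) or melatonin library 2 (-0.08). ATP6V1H, a regulatory subunit, was at 54.9 and 60.1 CPM in untreated libraries, 60.0 and 61.5 with chloroquine, and 54.7 and 50.6 with melatonin. It was called only between agents, at 0.20 ± 0.0597 (adjusted p = 0.00653), a call lost without melatonin library 2 (0.15), and it was called with melatonin without untreated library 1 (-0.19) or melatonin library 1 (-0.18) and after the offsets (-0.15). The corresponding differences between agents were 0.40 ± 0.0449 for ATP6V1C1, 0.28 ± 0.0465 for ATP6V1G1, 0.28 ± 0.0565 for ATP6V1D and 0.39 ± 0.0466 for ATP6V1E1. ATP6V1F, at 57.6 to 67.8 CPM, was called in none of the 3 comparisons as fitted. It was called with melatonin after the offsets (0.30) and with library totals as the only scaling (0.16). Between agents ATP6V1F was called after the offsets (-0.23), with library totals only (-0.19) and without melatonin library 1 (-0.18). With melatonin 2 of the 8 rose and 3 fell, where 25.5% and 26.5% of all tested genes did.

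In the membrane V0 sector 2 of 7 genes rose and 1 fell with chloroquine, and 1 rose and 3 fell with melatonin. Of all tested genes, 9.54% rose and 10.7% fell with chloroquine, and 25.5% and 26.5% with melatonin. ATP6V0A1 (chr17:42458844-42522611, plus strand), an a-subunit that lines the proton path, was at 78.5 and 79.9 CPM in untreated libraries, 89.9 and 91.0 with chloroquine, and 108 and 103 with melatonin. The 3 groups did not overlap and melatonin was highest. ATP6V0A1 rose by 0.19 ± 0.0463 with chloroquine (adjusted p = 0.00346) and by 0.42 ± 0.0454 with melatonin (adjusted p = 1.07e-08), and was lower with chloroquine than with melatonin (-0.23 ± 0.0439, adjusted p = 1.05e-04). Its paralogue ATP6V0A2 (chr12:123712318-123761755, plus strand) was at 51.7 and 52.2 CPM in untreated libraries, 62.1 and 62.9 with chloroquine, and 49.9 and 47.9 with melatonin. Here chloroquine was highest and melatonin lowest, with log2 fold changes of 0.27 ± 0.0573 (adjusted p = 0.00114) and -0.08 ± 0.0587 (not called, but called at -0.24 after the offsets). The 2 paralogues thus stood in opposite order between agents, as ATP6V0A2 was higher with chloroquine by 0.35 ± 0.0566 (adjusted p = 8.84e-06). ATP6V0E2 (chr7:149872968-149891204, plus strand), the less abundant e-subunit, was at 10.5 and 11.2 CPM in untreated libraries, 7.65 and 8.49 with chloroquine, and 12.0 and 11.1 with melatonin. Its chloroquine libraries lay below the other 4, at -0.43 ± 0.125 (adjusted p = 0.0127) against untreated cells and -0.52 ± 0.121 against melatonin (adjusted p = 7.01e-04). The call against untreated cells was lost without untreated library 2 (-0.39) or chloroquine library 1 (-0.36). The abundant e-subunit, ATP6V0E1, was at 108 and 109 CPM in untreated libraries, 107 and 111 with chloroquine, and 93.4 and 100.2 with melatonin. It fell with melatonin by 0.17 ± 0.0449 (adjusted p = 0.00205), a call lost without melatonin library 1 (-0.12), and its chloroquine value was 0.00 ± 0.0444. Between agents ATP6V0E1 was higher with chloroquine by 0.17 ± 0.0442, a call also lost without melatonin library 1 (0.12).

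ATP6V0D1, which joins the rotor to the membrane ring, was at 74.8 and 80.8 CPM in untreated libraries, 74.6 and 76.0 with chloroquine, and 65.2 and 66.9 with melatonin. It was lowest with melatonin, at -0.24 ± 0.0513 (adjusted p = 2.83e-04), which the offsets reduced to -0.04 with loss of the call. ATP6V0C, the proteolipid that forms the proton-carrying ring, was at 6.50 and 8.52 CPM in untreated libraries, 6.50 and 6.42 with chloroquine, and 4.99 and 6.65 with melatonin. Its groups overlapped, and its call with melatonin (-0.40 ± 0.167, adjusted p = 0.0465) was lost without untreated library 2 (-0.19), without melatonin library 1 (-0.18) and with the offsets. The exons of ATP6V0C overlap those of AC093525.2 on the same strand over 57.5% of their bases, and 4 pseudogenes carry its name, so its counts are uncertain. ATP6V0B, a second ring subunit, was at 56.9 to 62.7 CPM and was called in none of the 3 comparisons. Of the accessory proteins, ATP6AP1, which takes part in assembling the V0 sector, was at 65.3 and 63.3 CPM in untreated libraries, 73.0 and 67.0 with chloroquine, and 57.8 and 55.8 with melatonin. ATP6AP2, known also as the prorenin receptor, was at 148 and 153 CPM in untreated libraries, 158 and 153 with chloroquine, and 178 and 173 with melatonin. With melatonin ATP6AP1 was lowest and ATP6AP2 highest, at -0.18 ± 0.0566 (adjusted p = 0.0109) and 0.22 ± 0.0389 (adjusted p = 2.49e-05). The ATP6AP1 call was lost without untreated library 1 (-0.16) or melatonin library 2 (-0.16), and both calls were lost with the offsets (-0.04 and 0.06). EdgeR called 20.2% of all tested genes with chloroquine. Neither accessory gene was called with chloroquine by edgeR, DESeq2 or limma-voom, and 1 had an unadjusted p under 0.05. That gene, ATP6AP1, was called after the offsets (0.21). Between agents ATP6AP2 was lower with chloroquine (-0.17 ± 0.0383, adjusted p = 4.47e-04), a call lost with the offsets (-0.09).

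Summed over the 17 V-ATPase genes, 1291 and 1326 CPM in untreated libraries compared with 1418 and 1414 with chloroquine and 1321 and 1326 with melatonin. The chloroquine sums lay above the other 4, and the melatonin sums overlapped the untreated ones. This order depends on the TMM scaling. As a share of the library total, the 17 genes took 0.126% and 0.1294% in untreated libraries. With chloroquine they took 0.139% and 0.1384%, and with melatonin 0.1385% and 0.1372%, so both agents then lay above untreated cells. Behind the CPM sums, 7 of the 17 rose and 1 fell with chloroquine, where 9.54% and 10.7% of all tested genes did. With melatonin 4 of the 17 rose and 7 fell, where 25.5% and 26.5% of all tested genes did. The direct comparison of agents called 9 of the 17 higher and 3 lower with chloroquine, where 23.9% and 23.1% of all tested genes were.

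Over the 36, chloroquine and melatonin libraries differed directly in 22 genes (61.1%, where 47% of all tested genes were called, 23.9% higher and 23.1% lower), 18 higher with chloroquine and 4 lower. The 4 lower were ATP6V0A1, ATP6V0E2, ATP6AP2 and RRAGB, of which ATP6AP2 lost its call with the offsets (-0.09). Groups did not overlap for 21 of the 36 genes with chloroquine, 26 with melatonin and 26 between agents, where 57.6%, 74.1% and 71.8% of all tested genes did not overlap. Side by side, 4 genes rose with both agents (ATP6V1A, ATP6V1B2, ATP6V0A1 and RRAGC), 2 fell with both (RPTOR and MLST8), and 2 rose with chloroquine and fell with melatonin (ATP6V1C1 and ATP6V1G1). With the GC and length offsets, ATP6V0A1 alone of these genes stayed called with both agents. In 12 genes neither agent gave a call, among them ATP6V1H and LAMTOR3, which were called between agents. Shares of all tested genes in these joint patterns were not worked out, and both comparisons share the untreated libraries. The median log2 difference between agents was 0.18 for the 36 and -0.00 for all tested genes. With library totals as the only scaling, log2 fold changes of all genes with melatonin were shifted upward by a median of 0.10. The 36 then split into 9 higher and 4 lower with melatonin, and all genes into 5541 higher and 3434 lower, against 4307 and 4475 with TMM. Between agents the 36 then split into 13 higher and 8 lower with chloroquine, and all genes into 2952 and 5177, against 4041 and 3892. The melatonin calls lost with library totals were those of ATP6V1C1, ATP6V1D, ATP6V1G1, ATP6V0C, ATP6V0E1, ATP6AP1 and RHEB, with no change of sign. ATP6V1F, FNIP2 and MTOR became called with melatonin, MTOR at 0.11. The calls between agents lost with library totals were those of ATP6V1H (0.11), ATP6V0D1 (0.10), ATP6V0E1 (0.08), RRAGC (0.14) and RHEB (0.10). ATP6V1A, ATP6V1B2, ATP6V1F and TSC2 became called between agents, all lower with chloroquine.

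After offsets for GC content and length, 9 of the 36 rose and 1 fell with chloroquine (10.9% of all tested genes called), of which 9 were also called without the offsets. With melatonin 4 rose and 14 fell (48.3% of all tested genes called), of which 10 were also called without them. Between agents 18 were higher and 5 lower with chloroquine (45.9% of all tested genes called), of which 21 were also called without them. Calls that held in all 18 alternative fits other than the 1.5-fold test were 7 with chloroquine, all upward (ATP6V1B2, ATP6V1E1, ATP6V0A1, ATP6V0A2, RRAGC, FLCN and FNIP1). With melatonin there were 5, of which ATP6V0A1 and RRAGB rose and LAMTOR4, RPTOR and MLST8 fell. Between agents there were 15. How many of all tested genes held their calls in this way was not counted. DESeq2 called 10, 12 and 20 of the 36 with chloroquine, with melatonin and between agents. Among all 16877 tested genes it called 2025, 6801 and 5784. It did not call ATP6V1A, ATP6V1G1, ATP6V0E2, TSC1 or TSC2 with chloroquine, ATP6V1D, ATP6V1G1, ATP6V0C, ATP6AP1 or RRAGC with melatonin, or RRAGB and RRAGC between agents. In a test against a 1.5-fold change none of the 36 was called with chloroquine or between agents, and 1 had an unadjusted p under 0.05 in each.

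**Figure D4:**
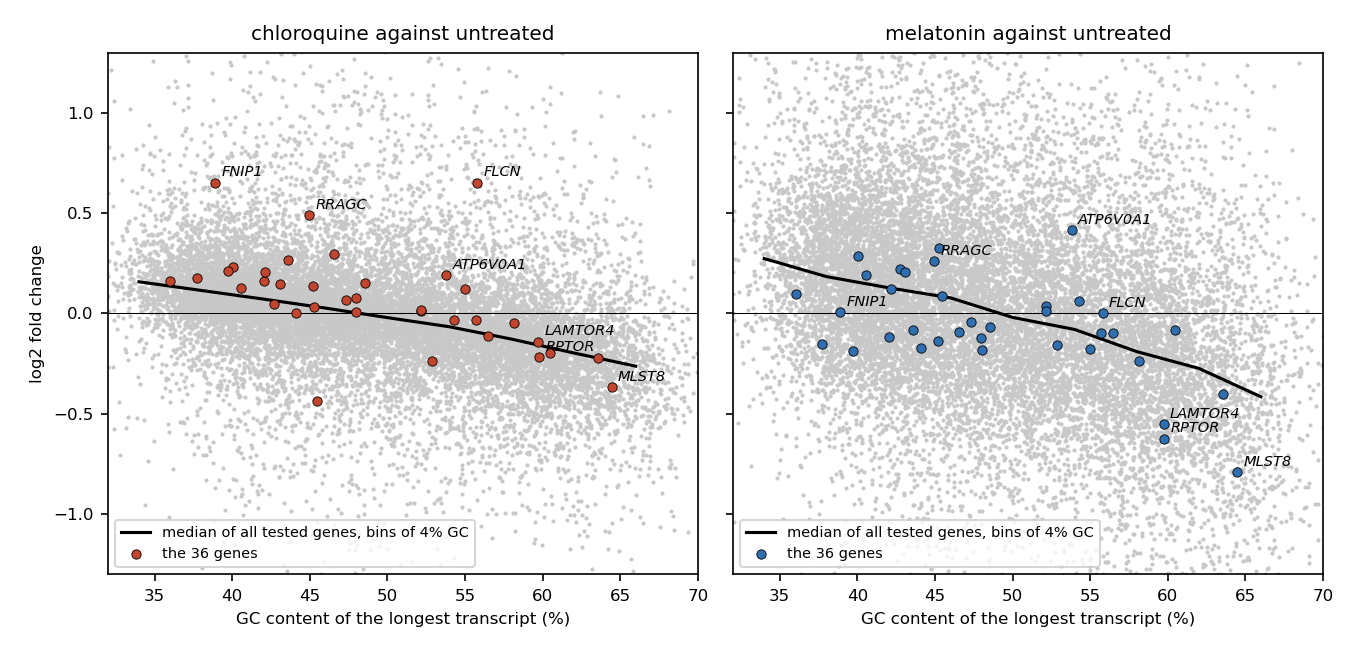
Log2 fold change is plotted against the GC content of the longest transcript for all tested genes with known GC (grey), the 36 genes (coloured) and the median of all genes in bins of 4% GC (line), with chloroquine at left and melatonin at right and values beyond the axes not drawn. FLCN, FNIP1 and RRAGC lie above the line with chloroquine, and RPTOR, MLST8 and LAMTOR4 below it with melatonin.

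Around the 36, other genes of the pathway were read from further lists. Beside the counts of all these lists, 9.54% of all tested genes rose and 10.7% fell with chloroquine, and 25.5% and 26.5% with melatonin. The tissue isoforms of the pump had 6 of 9 genes measured. TCIRG1, the a-subunit of osteoclasts, fell by 0.54 ± 0.0835 with chloroquine and 0.80 ± 0.0854 with melatonin, and was the only 1 of the 6 called with chloroquine. With melatonin ATP6AP1L rose by 0.62 and ATP6V1E2 by 0.36, the latter lost after the offsets. Of 10 measured factors for assembly of the pump, 1 rose with chloroquine, and 5 rose and 2 fell with melatonin. DMXL2, a rabconnectin that promotes assembly, rose by 0.30 ± 0.0501 with chloroquine and 0.82 ± 0.048 with melatonin. Its paralogue DMXL1 rose by 0.41 and its partner WDR7 by 0.43 with melatonin, whereas NCOA7, which binds the V1 sector, fell by 0.17.

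Upstream of the Rags, 2 of 7 genes of GATOR1 and KICSTOR fell with chloroquine and none rose. These were NPRL2 (-0.28) and NPRL3 (-0.27), parts of the GTPase-activating complex on RRAGA and RRAGB, and both calls were lost after the offsets. With melatonin KICS2 of KICSTOR rose (0.31) and NPRL3 fell (-0.24), and both calls were lost after the offsets. None of 5 GATOR2 genes was called with chloroquine by edgeR, DESeq2 or limma-voom, with 1 at an unadjusted p under 0.05. With melatonin MIOS rose by 0.31 and SEC13, shared with the nuclear pore, fell by 0.28. Of 6 measured amino acid sensors, 4 rose with melatonin, where 25.5% of all tested genes did. SESN2, a leucine sensor, rose by 0.80 ± 0.0935 with melatonin and was at 0.08 with chloroquine, and SESN1 (0.23) and BMT2 (0.26), the S-adenosylmethionine sensor also called SAMTOR, rose by less and lost their calls after the offsets. SESN3 was at 0.184 and 0.111 CPM in untreated libraries, 0.546 and 0.776 with chloroquine, and 6.75 and 5.74 with melatonin, so that its untreated level lay at or under 3 counts. It was the only sensor called with chloroquine.

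Among 9 partners of mTORC1 and parts of mTORC2, 1 rose and 1 fell with chloroquine, and 2 rose and 4 fell with melatonin. The shares of all tested genes were 9.54% and 10.7% with chloroquine and 25.5% and 26.5% with melatonin, here and for the substrates below. RICTOR, the scaffold of mTORC2, rose by 0.26 with chloroquine and 0.31 with melatonin, and both calls were lost after the offsets. PRR5L, another mTORC2 partner, fell by 0.31 and 0.49. With melatonin TBC1D7, the third TSC subunit, rose by 0.62 and TELO2, which helps assemble the kinase complexes, fell by 0.65. Among 13 substrates and effectors, 2 rose and 4 fell with chloroquine, and 2 rose and 5 fell with melatonin. LPIN1, a phosphatidate phosphatase that mTORC1 phosphorylates, rose by 0.84 ± 0.05 with chloroquine and was at 0.07 with melatonin. MAF1 (-0.27), ULK1 (-0.27) and RPS6KB2 (-0.30) fell with chloroquine, and all 3 calls were lost after the offsets. With melatonin the translational repressor EIF4EBP2 (0.40) and GRB10 (0.44) rose, and EIF4B (-0.26) and RPS6 (-0.33) fell.

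Of 10 measured upstream kinases and stress inputs, 2 rose and 3 fell with chloroquine, and 4 rose and 4 fell with melatonin. Of all tested genes, 20.2% were called in either direction with chloroquine and 52% with melatonin. DDIT4, an inhibitor of mTORC1 induced by stress, fell by 0.47 ± 0.0397 with chloroquine and 0.21 ± 0.0394 with melatonin, the latter lost after the offsets. With chloroquine PDPK1 (0.28) and PRKAA2 (0.29) rose and AKT1 (-0.20) fell. With melatonin AKT2 (-0.66), ARF1 (-0.29) and AKT1 (-0.32) fell and PRKAA2 (0.35) rose. The calls of AKT1 and PRKAA2 with either agent were lost after the offsets. Of 13 measured MiT/TFE factors and lysosomal membrane genes, 5 rose and 1 fell with chloroquine, and 4 rose and 5 fell with melatonin. NPC1, which exports cholesterol from the lysosome, rose by 0.68 ± 0.0416 with chloroquine and 0.35 ± 0.0424 with melatonin. OSTM1, the β-subunit of the chloride transporter CLCN7, rose by 0.29 and 0.72, the chloroquine call being lost after the offsets. CLCN7 itself rose by 0.19 ± 0.0572 with chloroquine and fell by 0.35 ± 0.0595 with melatonin, and the melatonin call was lost after the offsets. LAMP2 (0.22) and PIP4P1 (0.26) rose with chloroquine, the former lost after the offsets, and LAPTM4B (-0.57) fell with melatonin. Among the genes named from these further lists, DESeq2, limma-voom or a fit without 1 library also lost the chloroquine calls of NPRL2, NPRL3, SESN3, PRR5L, AKT1, PIP4P1 and CLCN7. The same fits lost the melatonin calls of ATP6AP1L, ATP6V1E2, NPRL3, KICS2, SESN1 and BMT2.

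**Figure D5:**
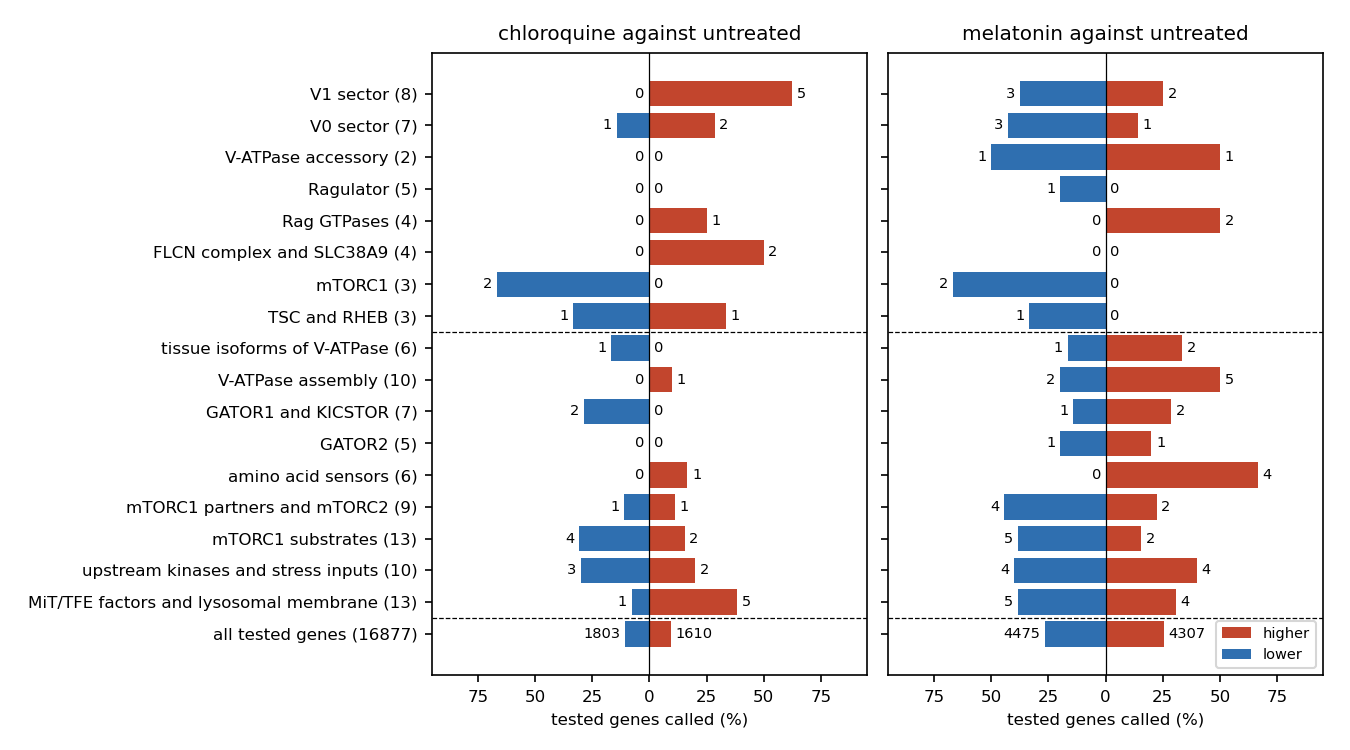
Bars show the percentage of tested genes of each list called higher (red) or lower (blue), with chloroquine at left and melatonin at right, the counts beside the bars and the tested genes of each list in brackets. The lists above the first dashed line make up the 36 genes, and the bottom bar gives all 16877 tested genes.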

How the data were processed

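Transcripts of 6 libraries of MHCC97-H cells were measured by sequencing of polyadenylated RNA (TruSeq kit, per the labels' protocols). The deposited table holds whole-number read counts per Ensembl gene, made by the authors from reads handled with fastp and the build GRCh38, as the submitters' processing notes name them. The sources used here do not give the aligner, the annotation release or the strand setting, so reads of overlapping or antisense genes cannot be told apart. Of the 36 genes, 19 share exon bases with another gene and 7 have pseudogenes named after them, which could take some of their reads.

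Symbols were found for 42303 of 62710 genes, and 58274 were placed by GENCODE 29 (GRCh38), the source of coordinates, exon length and GC content. For the tests, edgeR 4.0.16 was run in R 4.3.3. Its filterByExpr kept 16877 genes, which were scaled by TMM and fitted by quasi-likelihood over all 6 libraries with 1 term per group (common biological coefficient of variation 0.0315, 3 residual and 23.6 prior degrees of freedom). Fold changes are on the log2 scale, with the SE taken from the F statistic. The steps were tested on simulated data. Within groups, libraries differed by more than counting error (chi-square per degree of freedom 2.31, 1.82 and 2.61 for untreated, chloroquine and melatonin).

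Alternatives were RLE, upper-quartile and total-count scaling, DESeq2 1.42.0, limma-voom (limma 3.58.1), robust dispersion, no filter, a mean count of at least 50, only the 2 groups compared, a replicate block, GC and length offsets (a local regression, span 0.3, on the 12627 genes whose mean log2 CPM exceeded 1, GC being known for 16295 tested genes, 96.6%), both of these together, a 1.5-fold minimum change (glmTreat), and leaving out each library in turn. Then the lone library left in a group was taken to have the spread of the other groups. Members called in a comparison or between agents are given with every library, others by range, and other lists by counts with up to 4 called genes of smallest p per agent and any called in opposite directions. The 36 genes, the lists and the tests were chosen with earlier results of these data known. One gene that this rule would name is not reported here.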

Additional observations from a re-analysis of the deposited data

How the results depend on the processing

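Among the counts of the 36 genes, the 3 comparisons kept their main counts (15, 17 and 22 called with chloroquine, with melatonin and between agents) within 1.5 times in every alternative but the test against a 1.5-fold change, which called 0, 1 and 0 of them and 47, 1197 and 755 of all genes. The count of all genes called with chloroquine, 3413, was 2025 in DESeq2, 1841 with GC and length offsets and 1854 with the offsets and the replicate block, and ran from 1974 to 3732 with each library left out. Omitting chloroquine library 2 gave the lowest, and omitting library 1 of that group gave 2249. With each library left out, 10 to 16, 14 to 17 and 20 to 23 of the 36 were called. With melatonin, the offsets turned FNIP1 to -0.21 and TSC2 to 0.18, with or without the block, and ATP6V0C to 0.018 with the block. The cause was not tested. Equal replicate numbers were not taken as pairs, since deviations of same-numbered libraries correlated at -0.0168, -0.00876 and -0.0405 between groups. The replicate block called the same 15, 17 and 22 genes of the 36, and 3436, 8731 and 7878 of all genes. Counting CACGTG only before the start left it in 10 of 28 windows, against 11% of tested genes. With 2 libraries a group, small changes rest on a spread shared over all genes, and low counts, as in ATP6V0C, limit precision.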
